A study of Mus musculus with 8 samples.

Results

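The 6 genes of the platelet-derived growth factor (PDGF) system, the ligands *Pdgfa*, *Pdgfb*, *Pdgfc* and *Pdgfd* and the receptors *Pdgfra* and *Pdgfrb*, were taken by gene name from a table of 53465 mouse genes. RNA-seq was performed on 8 libraries of cultured pancreatic ductal adenocarcinoma (PDAC) cells. The lines, B73 and B87, were derived from primary tumors of KC-shSmad4 mice. These mice carry *Ptf1a*-Cre, which acts in the pancreas, a *Rosa26* LSL-rtTA3-IRES-mKate2 allele and, at *Col1a1*, a doxycycline (Dox)-inducible, GFP-linked short hairpin RNA (shRNA) against *Smad4*. Cells held in 1 µg/ml Dox were Smad4 off, cells kept 5 days without Dox were Smad4 on, and each state then received 100 pM TGFβ1 or 2.5 µM SB505124 for 24 h. SB505124 inhibits the kinase of the TGFβ type I receptor, so TGFβ1 was set against blocked rather than untreated signaling. All groups share these alleles, the shRNA cassette included, and each of the 4 groups held 1 library per line. Each line stands for 1 tumor. No cells with a control shRNA were among these libraries, so the presence of Dox and the *Smad4* state cannot be told apart, and which of the study's hairpins each line carried was not given in the sources used here.

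PDGF ligands are secreted growth factors that work as dimers of chains joined by disulfide bonds. PDGF-A and PDGF-B are cut by furin-like proteases inside the cell, whereas PDGF-C and PDGF-D leave the cell with a CUB domain that plasmin-type proteases remove. The receptors PDGFRα and PDGFRβ are tyrosine kinases that pair on ligand binding and pass the signal to phosphatidylinositol 3-kinase, phospholipase Cγ and mitogen-activated protein kinases. PDGF-AA and PDGF-CC act mainly through PDGFRα, PDGF-DD mainly through PDGFRβ, and PDGF-BB through both. In pancreatic tumors the receptors are best known on fibroblasts, stellate cells and pericytes, and the carcinoma cells are known as a source of ligand.

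All 6 genes passed the filter on low counts, in both lines together and in each line alone. On GRCm38, *Pdgfa* (ENSMUSG00000025856) lies on the minus strand of chromosome 5 from 138976014 to 138997370, and *Pdgfra* (ENSMUSG00000029231) on the plus strand of chromosome 5 from 75152292 to 75198215. *Pdgfb* (ENSMUSG00000000489) lies on the minus strand of chromosome 15 from 79995900 to 80014808, and *Pdgfc* (ENSMUSG00000028019) on the plus strand of chromosome 3 from 81036416 to 81214040. *Pdgfd* (ENSMUSG00000032006) lies on the plus strand of chromosome 9 from 6168584 to 6378850. None of their 75-base transcript stretches, the length of the reads, occurred in a transcript of another gene. The exons of *Pdgfa* share 813 bases with 6330403L08Rik, an antisense gene with 102 to 265 counts per library, and whether the counting used strand was not stated.

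RefSeq promoter windows (GRCm38.p6) were searched for 4 of the 6 genes, not for *Pdgfb* or *Pdgfrb*. The windows of *Pdgfa* and *Pdgfc*, ligands that rose with TGFβ1 in Smad4-on cells, are shown because SMAD proteins, the transcription factors downstream of TGFβ, bind short CAGAC elements. They are written 5′ to 3′ on the gene's own strand, ending at or before the transcription start, with matches to a searched motif in capitals. The second *Pdgfa* window stops where an annotated 5′ untranslated region begins, 93 bases before its RefSeq start.
Pdgfa, inner start, chr5:138994282-138994531, minus strand: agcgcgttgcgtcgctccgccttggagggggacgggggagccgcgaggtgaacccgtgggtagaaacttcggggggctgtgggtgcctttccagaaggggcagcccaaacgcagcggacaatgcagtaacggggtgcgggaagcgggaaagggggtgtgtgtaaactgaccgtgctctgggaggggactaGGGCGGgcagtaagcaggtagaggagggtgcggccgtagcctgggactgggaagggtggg
Pdgfa, outer start, chr5:138995038-138995194, minus strand: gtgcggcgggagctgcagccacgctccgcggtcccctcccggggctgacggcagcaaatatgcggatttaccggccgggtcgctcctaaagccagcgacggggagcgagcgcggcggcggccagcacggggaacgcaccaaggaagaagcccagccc
Pdgfc, chr3:81036166-81036415, plus strand: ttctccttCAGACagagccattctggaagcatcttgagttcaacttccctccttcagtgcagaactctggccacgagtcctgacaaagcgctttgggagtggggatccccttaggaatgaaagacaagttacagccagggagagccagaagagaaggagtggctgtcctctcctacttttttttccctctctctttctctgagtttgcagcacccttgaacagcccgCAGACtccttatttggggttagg
The motifs were the SMAD element CAGAC, the palindromic SMAD element GTCTAGAC, the AP-1 element TGANTCA and the SP1 box GGGCGG, each sought on both strands of the 250 bases before the start. None of these motifs contains another, although their ends can overlap. *Pdgfc* held 2 CAGAC matches, with first bases 242 and 23 bases before the start, and neither *Pdgfa* window held one. The inner *Pdgfa* window held 1 SP1 box, and the outer window held 2, both within the bases not printed. The windows of *Pdgfd* and *Pdgfra* held 2 and 1 CAGAC matches. CAGAC occurred in 42.2% of 32851 promoter windows of the same length and the SP1 box in 32.7%, so such matches are common and describe the letters only. The AP-1 element (6.75% of windows) and the palindromic element (0.167%) were in none of the 5 PDGF windows.

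The libraries held 18389235 to 23440550 counts, at which 3 counts, the smallest level taken as detectable, equal 0.128 to 0.163 CPM. CPM is a gene's count relative to the TMM-adjusted library size, and the floor takes only counting error into account. *Smad4* stood at 34.3 ± 0.870 CPM (SD, n = 2) in Smad4-off and 106 ± 11.6 in Smad4-on cells under SB505124, and at 35.1 ± 0.602 and 116 ± 1.06 under TGFβ1, as the labels say. Of 8 epithelial and ductal markers, 7 or 8 exceeded 3 counts in every library, with a summed level of 3947 to 6209 CPM in B73 and 1222 to 2109 in B87. *Epcam*, which marks epithelial surfaces, was near the floor in some libraries (0.153 to 2.11 CPM). *Cldn4*, from the same list, had 0 counts in every SB505124 library. Under TGFβ1 it had 69 and 906 counts in B73 (Smad4 off and on) and 4 and 64 in B87. The fibroblast markers other than the PDGF receptors summed to 4.92 to 38.2 CPM in B73 and 33.9 to 649 in B87. *Col1a1*, the gene that carries the shRNA cassette, led the sum in B87 (25.9 to 627 CPM) and stood at 0.349 to 5.10 CPM in B73. The defining fibroblast gene *Lum* was at 0 counts in every library, and *Dcn* and *Thy1* did not exceed 3 and 1 counts. Pericyte markers other than *Pdgfrb* summed to 0.561 to 4.74 CPM in B73 and 1.27 to 3.34 in B87, with *Abcc9* at 0 and *Rgs5* at 5 counts or fewer. Endothelial markers summed to 0.865 to 7.24 and 2.79 to 26.1 CPM, where *Kdr* reached 25.2 and *Cdh5* 2.76 CPM, and immune markers to 1.68 to 6.34 and 1.38 to 2.29 CPM, mainly *Cd68*.

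**Figure D1:**
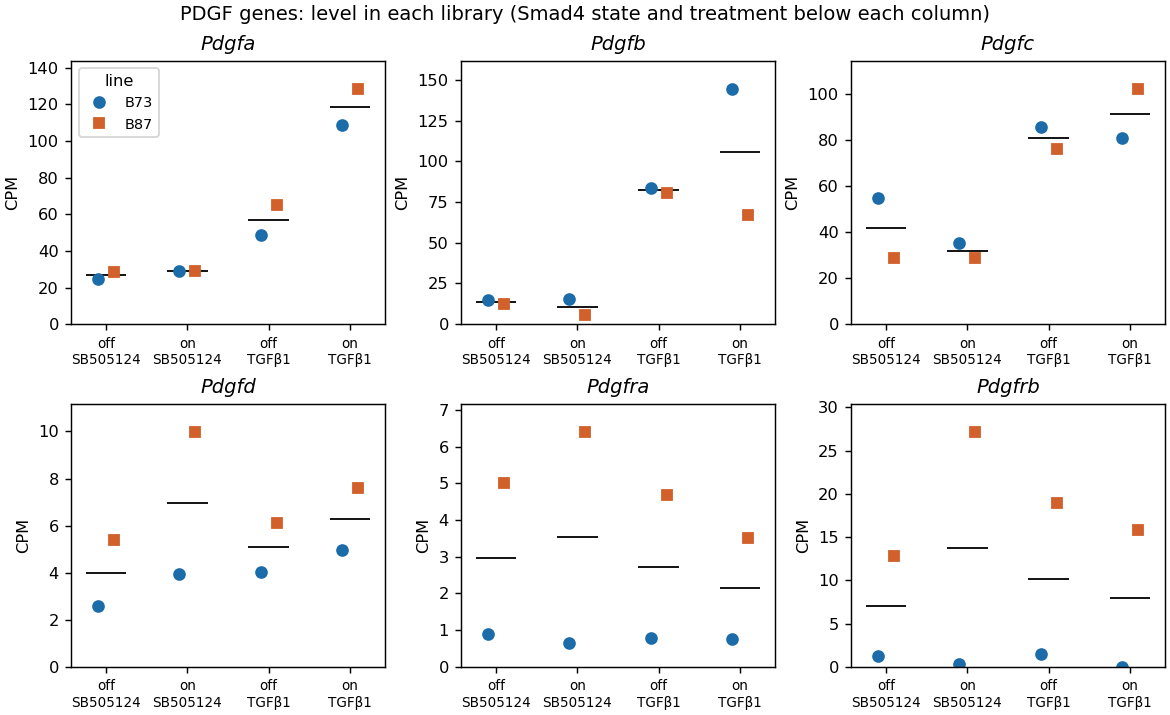
Level of each PDGF gene in each library, in CPM on a linear axis from 0, by *Smad4* state and treatment. Circles are line B73, squares line B87 and bars the mean of the 2 libraries. *Pdgfb* is at 5.74 to 15.3 CPM under SB505124 and 67.0 to 144 under TGFβ1, and the receptors separate by line.

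The first question was how the PDGF genes respond to TGFβ1 where *Smad4* is present. In Smad4-on cells, 3 of the 6 PDGF genes rose with TGFβ1 and none fell, where 5.62% of all 14301 tested genes rose and 8.31% fell by the same rule (adjusted p under 0.05 and a change over 2-fold, edgeR quasi-likelihood test). All 3 were ligands. The median log2 fold change of the 6 genes was 0.74, beside -0.02 over all tested genes.

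*Pdgfb* encodes the chain of PDGF-BB, the ligand of both receptors. Its level in B73 was 14.6 (Smad4 off) and 15.3 CPM (Smad4 on) under SB505124, and 83.9 and 144 CPM under TGFβ1. In B87 it was 12.5 and 5.74 CPM under SB505124, and 80.7 and 67.0 CPM under TGFβ1. Every TGFβ1 library lay above every SB505124 library, and the lines were close in all conditions except the Smad4-on ones, where B73 was higher. The log2 fold change with TGFβ1 was 3.35 ± 0.34 (SE) in Smad4-on cells (adjusted p = 0.000624, edgeR), with 3.23 in B73 and 3.52 in B87. In Smad4-off cells it was 2.63 ± 0.32 (adjusted p = 0.00399, edgeR). Without the cell line in the model it was 2.60 in edgeR (adjusted p = 0.0843) and 2.61 in DESeq2 (adjusted p = 4.48e-06).

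*Pdgfa* encodes the chain of PDGF-AA. Under SB505124 it stood at 24.6 and 28.9 CPM in B73 (Smad4 off and on) and at 28.7 and 29.0 CPM in B87. Under TGFβ1 it stood at 48.6 and 109 CPM in B73 and at 65.2 and 128 CPM in B87. The 4 SB505124 libraries lay lowest, the Smad4-off TGFβ1 libraries lay above them, and the Smad4-on TGFβ1 libraries lay highest in both lines. TGFβ1 raised *Pdgfa* by a log2 fold change of 2.03 ± 0.11 in Smad4-on cells (adjusted p = 0.000107, edgeR) and 1.09 ± 0.11 in Smad4-off cells (adjusted p = 0.00227). The antisense gene 6330403L08Rik, whose exons overlap it, changed by 0.97 ± 0.21 in Smad4-on cells (adjusted p = 0.0137, under 2-fold).

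*Pdgfc* encodes a CUB-domain ligand of PDGFRα. Its level in B73 was 54.9 and 35.1 CPM under SB505124 (Smad4 off and on) and 85.7 and 80.9 CPM under TGFβ1. In B87 it was 28.9 and 28.8 CPM under SB505124 and 76.3 and 102 CPM under TGFβ1. Treatment groups did not overlap, although B73 in the Smad4-off state under SB505124 lay well above the other SB505124 libraries. The log2 fold change was 1.55 ± 0.26 in Smad4-on cells (adjusted p = 0.00476, edgeR), with 1.20 in B73 and 1.83 in B87. In Smad4-off cells it was 0.98 ± 0.26 (adjusted p = 0.0489), just under the 2-fold rule, with 0.64 in B73 and 1.40 in B87. A fit of only those 4 libraries, which leaves 1 residual degree of freedom, gave 1.02 and called it (adjusted p = 0.00335, edgeR).

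*Pdgfd*, the other CUB-domain ligand and a partner of PDGFRβ, was much lower. In B73 it was at 2.60 and 3.94 CPM under SB505124 (Smad4 off and on) and 4.03 and 4.95 under TGFβ1. In B87 it was at 5.40 and 9.98 CPM under SB505124 and 6.13 and 7.60 under TGFβ1. B87 lay above B73 in each condition, and the treatments overlapped. The TGFβ1 log2 fold change was -0.07 ± 0.24 in Smad4-on cells (adjusted p = 0.857, edgeR), where the lines had opposite signs (0.32 in B73 and -0.39 in B87), and 0.40 ± 0.24 in Smad4-off cells (adjusted p = 0.339).

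**Figure D2:**
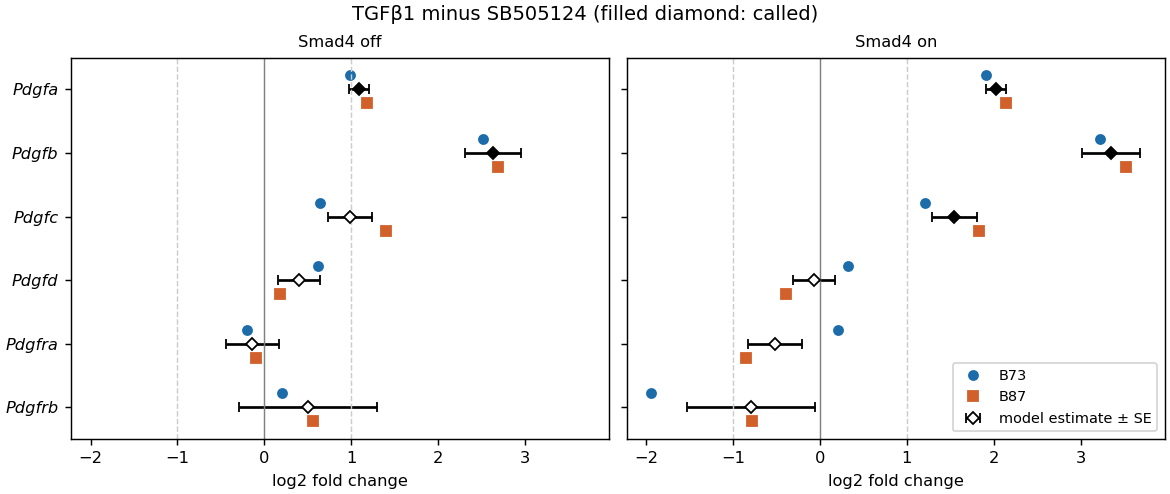
Log2 fold change of each PDGF gene, TGFβ1 minus SB505124, in Smad4-off (left) and Smad4-on cells (right). Diamonds are the edgeR estimate ± SE, filled where called, circles B73 and squares B87, and dashed lines mark 2-fold. *Pdgfb* lies at 2.63 and 3.35 and the receptor estimates between -0.80 and 0.50. The B73 point of *Pdgfrb* in Smad4-on cells compares 5 with 0 counts, so its place depends on the prior count.

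In Smad4-off cells 2 of the 6 genes rose with TGFβ1, *Pdgfa* and *Pdgfb*, where 3.11% of all tested genes rose and 2.82% fell. The median of the 6 genes was again 0.74, beside -0.02 over all tested genes. These contrasts and the *Smad4* contrasts share libraries, so their values are given side by side and not compared as independent results.

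The comparison of Smad4-on with Smad4-off cells asks which genes depend on *Smad4* restoration. Under TGFβ1, *Pdgfa* was the 1 PDGF gene that rose, where 1.31% of all tested genes rose and 1.8% fell. Its log2 fold change was 1.06 ± 0.11 (adjusted p = 0.00387, edgeR), with 1.16 in B73 and 0.98 in B87. Without the cell line in the model the estimate was 1.06 in both tools, with an adjusted p of 0.0933 in edgeR and 1.28e-05 in DESeq2. *Pdgfb* changed by 0.25 ± 0.30 (adjusted p = 0.664), up in B73 (0.78) and down in B87 (-0.27). *Pdgfc* changed by 0.20 ± 0.25 (adjusted p = 0.679) and *Pdgfd* by 0.30 ± 0.24 (adjusted p = 0.495, edgeR).

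Under SB505124 none of the 6 genes passed, where 1.09% of all tested genes were called in either direction (edgeR). *Pdgfd* came closest, with 0.77 ± 0.24 (adjusted p = 0.242, edgeR) and a higher value with *Smad4* on in either line (B73 0.59, B87 0.87). *Pdgfa* changed by 0.13 ± 0.11 (adjusted p = 0.718), *Pdgfb* by -0.47 ± 0.34 (0.632) and *Pdgfc* by -0.36 ± 0.26 (0.630). DESeq2, with or without the line, also called 0 of the 6.

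The interaction asks whether the *Smad4* difference was larger under TGFβ1 than under SB505124. It was called for 0 of the 6 genes, beside 0.189% of all tested genes (0.0559% higher and 0.133% lower). *Pdgfa* came closest, at 0.94 ± 0.16 (adjusted p = 0.122, edgeR), with 0.93 in B73 and 0.96 in B87. Over the alternatives its adjusted p ran from 0.00108 (DESeq2 with the line) to 0.954 (edgeR without it), with an estimate under 2-fold throughout. *Pdgfb* stood at 0.72 ± 0.45 (adjusted p = 0.644), *Pdgfc* at 0.56 ± 0.36 (0.655) and *Pdgfrb* at -1.30 ± 1.08 (0.750).

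**Figure D3:**
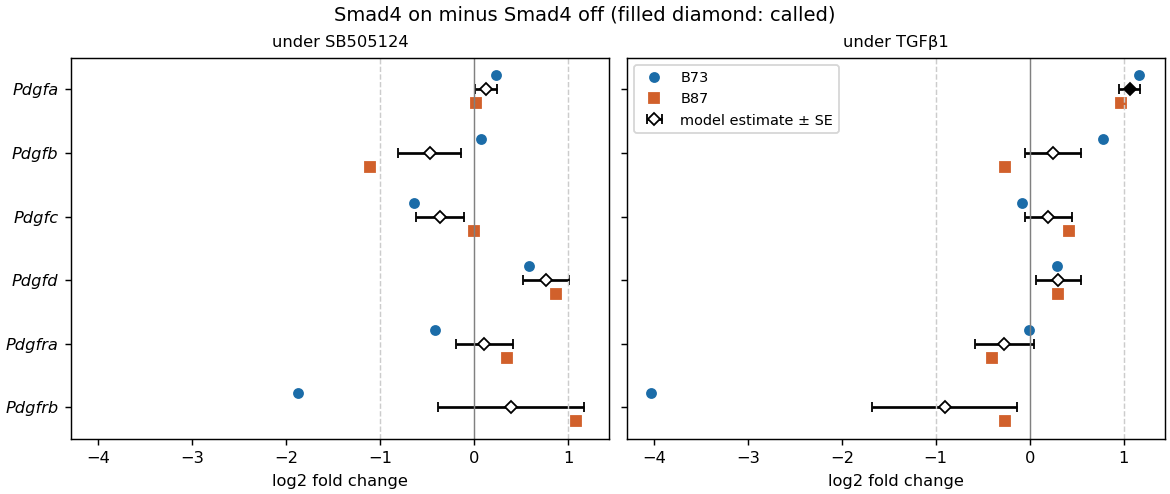
Log2 fold change of each PDGF gene, Smad4 on minus Smad4 off, under SB505124 (left) and TGFβ1 (right), with the symbols of the TGFβ1 plot. *Pdgfa* under TGFβ1, at 1.06, is the called gene, and the lines lie on opposite sides of 0 for *Pdgfb* in both panels. The B73 point of *Pdgfrb* under TGFβ1 compares 34 with 0 counts, so its place depends on the prior count.

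Levels of different genes can be compared only per length, so CPM was divided by the kilobases of exon of each gene. The 4 ligands together summed to 23.0 and 21.1 CPM per kb in B73 under SB505124 (Smad4 off and on), and to 53.9 and 86.999 under TGFβ1. In B87 the sums were 19.6 and 19.5 under SB505124, and 57.2 and 79.7 under TGFβ1. The lines thus lay close in total ligand RNA in each condition.

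The mixture differed more than the total. *Pdgfb* made up 15.3% and 17.5% of ligand RNA per length in B73 under SB505124 and 37.4% and 39.9% under TGFβ1. In B87 its share was 15.3% and 7.07% under SB505124 and 33.9% and 20.2% under TGFβ1. *Pdgfa* made up 28.9% to 43.9% in B73 and 36.5% to 51.6% in B87, and *Pdgfc* 18.3% to 46.9% and 25.2% to 29.0%. *Pdgfd* made up 1.80% to 16.2%, with the highest share in Smad4-on B87 cells under SB505124. The level of *Pdgfb* per level of *Pdgfa* was highest in the Smad4-off TGFβ1 libraries of both lines, at 1.29 in B73 and 0.928 in B87, and was 0.996 and 0.392 in the Smad4-on TGFβ1 libraries. No test was made of these shares.

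**Figure D4:**
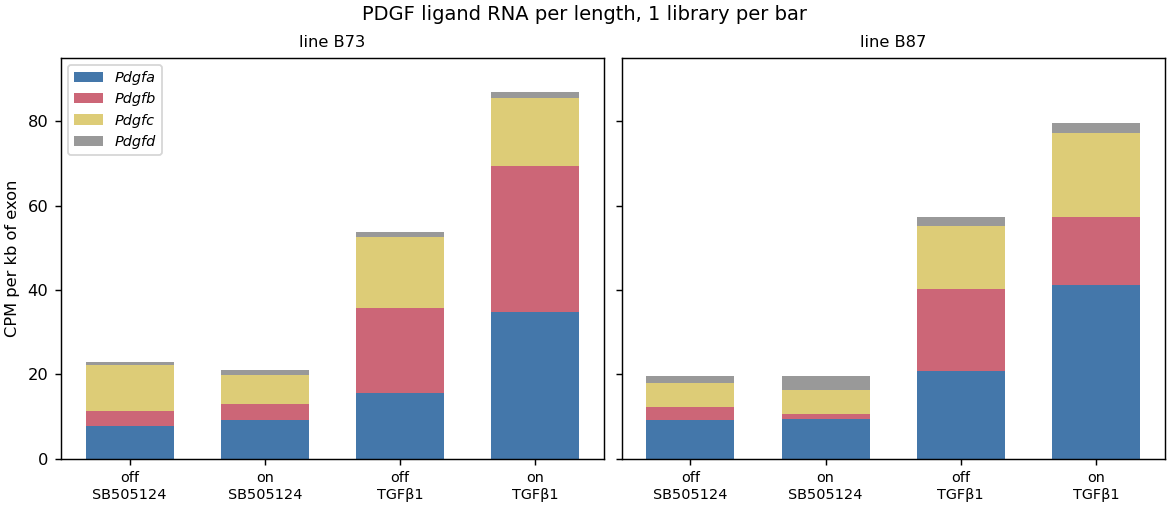
Ligand RNA per length in each library, in CPM per kb of exon on an axis from 0, stacked by ligand, for B73 (left) and B87 (right). The 4 TGFβ1 bars reach 53.9 to 86.999 and the 4 SB505124 bars 19.5 to 23.0, with similar totals in both lines.

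By group mean per length, the order was *Pdgfa*, *Pdgfc*, *Pdgfb*, *Pdgfrb*, *Pdgfd* and *Pdgfra* in both SB505124 groups. These means pool lines that differ in receptor level, and in B73 alone *Pdgfrb* came after *Pdgfd* in each condition, and last in both Smad4-on libraries. *Pdgfc* came first in Smad4-off B73 cells under SB505124. With *Smad4* off, *Pdgfa* (8.54 ± 0.936 CPM per kb, SD, n = 2) and *Pdgfc* (8.23 ± 3.62) did not differ beyond their spread, and *Pdgfb* stood at 3.26 ± 0.365. With *Smad4* on, *Pdgfa* stood at 9.28 ± 0.0407 and *Pdgfc* at 6.28 ± 0.881, while *Pdgfb* (2.53 ± 1.63), *Pdgfrb* (2.50 ± 3.47) and *Pdgfd* (2.21 ± 1.35) did not differ beyond their spread. In Smad4-off cells under TGFβ1, *Pdgfb* (19.8 ± 0.560), *Pdgfa* (18.2 ± 3.75) and *Pdgfc* (15.9 ± 1.31) came first, and *Pdgfb* and *Pdgfa* lay within the spread of *Pdgfa*. In Smad4-on cells under TGFβ1 the order was *Pdgfa* (38.0 ± 4.44), *Pdgfb* (25.4 ± 13.1) and *Pdgfc* (18.0 ± 2.96), where *Pdgfb* overlapped both neighbours. The other 3 genes had group means of 0.214 to 1.99 CPM per kb under TGFβ1, and *Pdgfra* had the lowest mean in each of the 4 groups, and the lowest level in 6 of the 8 libraries. With the deposited transcript length, which is 2918 bases for *Pdgfb* where the exon union has 4161, *Pdgfb* moved up by 1 place in 3 TGFβ1 libraries, to first in Smad4-on B73 and Smad4-off B87 cells and to second in Smad4-on B87 cells.

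Neither receptor was called for TGFβ1 or for *Smad4*, and both differed between the lines. *Pdgfra*, the receptor of PDGF-AA and PDGF-CC, stood at 0.898 and 0.648 CPM in B73 under SB505124 (Smad4 off and on) and at 0.771 and 0.766 under TGFβ1. In B87 it stood at 5.01 and 6.41 CPM under SB505124 and at 4.68 and 3.52 under TGFβ1. The lines did not overlap. From log2 CPM with 2 prior counts, B87 was 4.20 to 8.74 times B73 in the 4 conditions, less than the ratios of plain CPM. The line difference was called, at a log2 value of 2.63 ± 0.23 (adjusted p = 0.000466, edgeR).

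*Pdgfrb* (ENSMUSG00000024620, plus strand of chromosome 18, 61045150 to 61085061), the receptor of PDGF-BB and PDGF-DD and a usual marker of pericytes, differed more. It had 25 and 5 counts in B73 under SB505124 (Smad4 off and on) and 34 and 0 under TGFβ1, which is 1.25, 0.270, 1.46 and 0 CPM. In B87 it had 291 and 653 counts under SB505124 and 380 and 310 under TGFβ1, which is 12.8, 27.2, 18.9 and 15.8 CPM. From log2 CPM with 2 prior counts, B87 was 9.59 times B73 in Smad4-off cells under SB505124 and 12.3 times under TGFβ1. The line difference was called, at a log2 value of 4.64 ± 0.60 (adjusted p = 0.00255, edgeR), in a fit that includes a library at 0 counts. Of the 6 genes, these 2 were called higher in B87, where 8.37% of all tested genes were called, 3.87% higher and 4.5% lower. *Pdgfd* was also higher in B87, by 0.90 ± 0.17 (adjusted p = 0.0127), which is under 2-fold.

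Of the 8 fibroblast markers, *Col1a1* reached 627 CPM in B87 and 5.10 in B73. *Col1a2* was higher in B73 (up to 3.01 CPM, against 0.255 in B87), and *Col3a1* reached 41.5 CPM in B87 and 34.0 in B73. *Dpt* (at most 18 counts) and *Fap* (at most 7) had counts in B87 and none in B73, and *Lum*, *Dcn* and *Thy1* were at or near 0 in both lines. Summed epithelial markers were lower in B87. The part of these markers in the receptor difference was not tested, and in cultures measured in bulk, fewer cells of a type and less RNA per cell cannot be told apart.

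In B73 alone, *Pdgfrb* was lower with *Smad4* on. Under SB505124 the difference in plain CPM was 4.62-fold (95% interval 1.74 to 15.4, which covers counting error only). Under TGFβ1 the Smad4-on library had 0 counts, and the difference was 9.52-fold when a floor of 3 counts (0.153 CPM) was put in its place. The 95% counting interval started lower, at 7.33-fold. The pericyte marker *Notch3* was lower in the same libraries (92 and 17 counts under SB505124, 56 and 9 under TGFβ1, Smad4 off and on), as was the fibroblast marker *Col3a1* (231 and 34, then 794 and 33). The fibroblast markers *Col1a1* (7 and 11, then 51 and 100) and *Col1a2* (36 and 46, then 47 and 59) went the other way. The part of these markers in the *Pdgfrb* difference was not tested. In B87 the Smad4-on level was above the Smad4-off level under SB505124, by 1.08 on the log2 scale, and slightly below it under TGFβ1 (-0.26). Over both lines the *Smad4* log2 fold change was 0.39 ± 0.78 under SB505124 (adjusted p = 0.886, edgeR) and -0.91 ± 0.77 under TGFβ1 (adjusted p = 0.524). *Pdgfra* changed by 0.11 ± 0.30 (adjusted p = 0.922) and -0.27 ± 0.31 (adjusted p = 0.654).

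For TGFβ1, *Pdgfra* changed by -0.52 ± 0.31 in Smad4-on cells (adjusted p = 0.243, edgeR) and -0.14 ± 0.30 in Smad4-off cells (0.809). *Pdgfrb* changed by -0.80 ± 0.74 (0.446) and 0.50 ± 0.79 (0.730). A fit of only the 4 Smad4-on libraries, which leaves 1 residual degree of freedom, gave -0.88 for *Pdgfrb* (adjusted p = 0.0459, edgeR), under 2-fold and so not called. The receptors summed to 0.0764 to 0.343 CPM per kb in B73 and 2.83 to 5.60 in B87. Ligand RNA per receptor RNA was 72.5 to 185 in 3 B73 libraries and 3.49 to 24.6 in B87. In the B73 library with *Pdgfrb* at 0 counts and *Pdgfra* at 15, the ratio was 1139 and rested on those few counts.

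A model with a separate *Smad4* effect and a separate TGFβ1 effect in each line, which leaves 1 residual degree of freedom, called a different *Smad4* effect for 2 of the 6 genes, *Pdgfb* and *Pdgfrb*. By the same rule 2.59% of all tested genes were called, 1.55% with a higher and 1.04% with a lower effect in B87. For *Pdgfb* the effect in B87 minus that in B73 was -1.10 ± 0.12 (adjusted p = 3.85e-05, edgeR), and with only the *Smad4* effect allowed to differ it was -1.10 ± 0.16 (adjusted p = 0.0529). For *Pdgfrb* it was 3.86 ± 0.55 (adjusted p = 0.000413) and, in the smaller model, 3.76 ± 0.62 (adjusted p = 0.0757). *Pdgfc* differed by 0.57 ± 0.11 (adjusted p = 0.00385), which is under 2-fold, and by 0.58 ± 0.29 in the smaller model (adjusted p = 0.608). The number of calls thus went from 2 to 0 with the smaller model. The TGFβ1 effect was not called different for any of the 6 genes, beside 1.1% of all tested genes (0.748% higher and 0.357% lower in B87), and *Pdgfc* came closest at 0.69 ± 0.11 (adjusted p = 0.00167, edgeR, under 2-fold).

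Of 68 genes in 7 lists around the PDGF system, 64 were tested. In Smad4-on cells TGFβ1 raised 11 and lowered 10 of them, which is 32.8% beside 13.9% of all tested genes. In Smad4-off cells it raised 6 and lowered 3 (14.1%, beside 5.93%). *Smad4* under TGFβ1 raised 5 and lowered 4 (14.1%, beside 3.12%), and under SB505124 it lowered 1 (1.56%, beside 1.09%). The lists were chosen with earlier results of these data known, so these shares describe the lists and are not a test of them.

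The 7 proteases that activate PDGF ligands split in direction, with 2 up, 2 down and 3 not called for TGFβ1 in Smad4-on cells, and a median of -0.78. *Furin*, which cuts the PDGF-A and PDGF-B precursors, stood at 139 to 163 CPM in Smad4-on cells under SB505124 and 333 to 427 under TGFβ1, a log2 fold change of 1.33 ± 0.09 (adjusted p = 0.000181, edgeR). *Pcsk6*, a related convertase, fell by 2.67 ± 0.27 (adjusted p = 0.000659), with 136 CPM under SB505124 and 31.3 under TGFβ1 in B73, and 46.0 and 4.44 in B87. *Plat*, the tissue plasminogen activator known to cut PDGF-C, fell by 2.28 ± 0.13 (adjusted p = 0.000100), to 17.7 CPM in B73 and 18.7 in B87. *Plau*, the urokinase that can cut PDGF-D, rose by 1.22 ± 0.23 (adjusted p = 0.00742).

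*Plat* was the protease with a called interaction (-1.98 ± 0.17, adjusted p = 0.0189, edgeR). It was lower with *Smad4* on under TGFβ1 by -1.72 ± 0.12 on the log2 scale (adjusted p = 0.00140), and *Plau* was lower with *Smad4* on under SB505124 (-1.44 ± 0.23, adjusted p = 0.0359). Among the proteases, *Pcsk5* and *Pcsk6* differed between the lines. *Pcsk5* had 205 to 380 counts in B73 and 0 to 3 in B87, and *Pcsk6* was lower in B87 by -2.15 ± 0.19 (adjusted p = 0.000528). In Smad4-off cells *Pcsk6* was the 1 protease called for TGFβ1 (-1.14 ± 0.26, adjusted p = 0.0313).

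Of 6 surface proteins that bind PDGF or its receptors, 2 rose and 1 fell with TGFβ1 in Smad4-on cells. These were the integrin subunits *Itgav* (1.53 ± 0.13, adjusted p = 0.000345, edgeR) and *Itgb3* (2.15 ± 0.38, adjusted p = 0.00582), which together form the integrin αvβ3, and the semaphorin and VEGF co-receptor *Nrp1* (-1.08 ± 0.19, adjusted p = 0.00603). *Itgb3* also rose in Smad4-off cells, by 2.33 ± 0.40 (adjusted p = 0.0128). *Lrp1*, an endocytic receptor that binds PDGFRβ, was higher in B87 by 1.64 ± 0.27 (adjusted p = 0.00721), as was *Pdgfrl*, a receptor-like gene (2.76 ± 0.42, adjusted p = 0.00521). *Lrp1* stood at 170 to 476 CPM in B73 and 439 to 1702 in B87, and within each treatment its level was lower with *Smad4* on in B73 and higher with *Smad4* on in B87. The line difference in its *Smad4* effect was 1.30 ± 0.09 (adjusted p = 6.29e-07), and 1.30 ± 0.17 in the smaller model (adjusted p = 0.0457, edgeR).

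The 23 proteins that bind activated PDGF receptors or act next to them, such as *Grb2*, *Plcg1* and the PI3-kinase subunits, were mostly not called. For TGFβ1 in Smad4-on cells 22 were not called, and *Stat5a* fell by 1.05 ± 0.12 (adjusted p = 0.00117, edgeR). None was called for *Smad4* or for TGFβ1 in Smad4-off cells. Among 12 inhibitors of the receptors, the ubiquitin ligase *Cblb* rose (1.503 ± 0.11, adjusted p = 0.000216), and the phosphatase *Ptprj* (-1.42 ± 0.09, adjusted p = 0.000114) and the feedback inhibitor *Spry1* (-1.54 ± 0.26, adjusted p = 0.00524) fell. *Ptprj* was also lower with *Smad4* on under TGFβ1 (-1.03 ± 0.09, adjusted p = 0.00186).

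Of 8 genes known as early responses of fibroblasts to PDGF, 7 were tested. With TGFβ1 in Smad4-on cells, *Fosb* rose by 4.07 ± 0.32 (adjusted p = 0.000252, edgeR) and *Ccl2* by 2.21 ± 0.69 (adjusted p = 0.0466), while *Cxcl1* fell by 2.73 ± 0.81 (adjusted p = 0.0390). The fall of *Cxcl1* lay mostly in B87 (347 to 16 counts), with 33 to 24 counts in B73. *Ccl2* went from 0 to 31 counts in B73 and from 26 to 70 in B87, so its estimate includes a library at 0 counts. The same 3 genes were called in the same directions in Smad4-off cells. Under TGFβ1, *Smad4* raised *Fos* (1.85 ± 0.42, adjusted p = 0.0481) and *Fosb* (1.24 ± 0.26, adjusted p = 0.0384) and lowered *Ccl2* (-3.27 ± 0.53, adjusted p = 0.0164). *Egr1* was not called for TGFβ1 in Smad4-on cells (0.15 ± 0.31, adjusted p = 0.743). These genes respond to many stimuli, and PDGF itself was not added here.

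Vascular endothelial growth factors (VEGF) share the cystine-knot fold of the PDGF chains. Of the 5 VEGF genes, 3 rose with TGFβ1 in Smad4-on cells, *Pgf* (3.78 ± 0.18, adjusted p = 5.48e-05, edgeR), *Vegfa* (2.22 ± 0.09, adjusted p = 3.86e-05) and *Vegfc* (2.16 ± 0.24, adjusted p = 0.000955). *Vegfd* fell by 1.49 ± 0.29 (adjusted p = 0.00809), and *Vegfb* changed by -0.75 ± 0.16 (adjusted p = 0.0120, under 2-fold). The same 4 genes were called for *Smad4* under TGFβ1, *Pgf* (2.11 ± 0.16), *Vegfc* (1.58 ± 0.24) and *Vegfa* (1.21 ± 0.09) higher and *Vegfd* (-1.27 ± 0.29) lower. The median of the 5 VEGF genes in that contrast was 1.21, beside 0.22 for the 6 PDGF genes and -0.01 for all tested genes.

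*Vegfa* had a called interaction, at 1.38 ± 0.13 (adjusted p = 0.0206, edgeR). Its level was 69.4 and 62.4 CPM in B73 under SB505124 (Smad4 off and on) and 123 and 310 under TGFβ1, and in B87 it was 65.8 and 57.9, then 118 and 250. The Smad4-on TGFβ1 libraries were highest in both lines, the order seen for *Pdgfa*.

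Class III receptor tyrosine kinases are the family of the PDGF receptors. The family's other receptor genes on the list, *Kit*, *Csf1r* and *Flt3*, had at most 6 counts in a library and were not tested. Of their 4 ligands, *Il34* rose with TGFβ1 in Smad4-on cells (1.72 ± 0.13, adjusted p = 0.000260, edgeR), *Kitl* (-2.50 ± 0.10, adjusted p = 3.86e-05) and *Flt3l* (-1.09 ± 0.27, adjusted p = 0.0199) fell, and *Csf1* stood at 0.12 ± 0.21 (adjusted p = 0.695). *Il34* and *Kitl* were also called in Smad4-off cells, at 1.40 ± 0.13 and -1.46 ± 0.10.

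**Figure D5:**
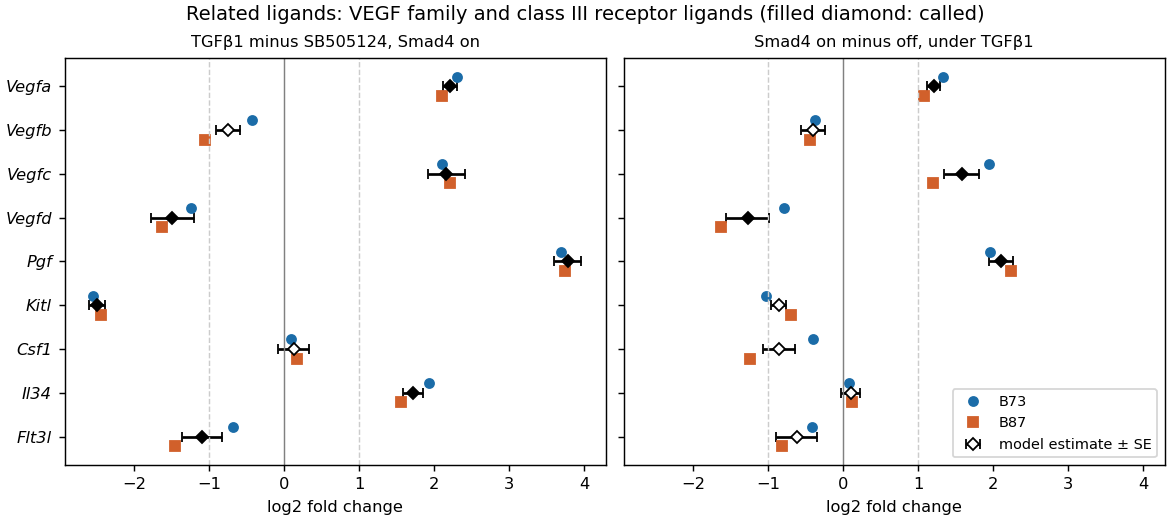
Log2 fold change of 5 VEGF-family and 4 class III receptor ligands, for TGFβ1 minus SB505124 in Smad4-on cells (left) and Smad4 on minus off under TGFβ1 (right), with the symbols of the TGFβ1 plot. *Pgf*, *Vegfa* and *Vegfc* lie above 1 in both panels, *Vegfd* below -1 in both, and *Kitl* at -2.50 on the left.

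Log2 CPM was centred within each line and correlated with each PDGF gene over the 8 libraries, among 11099 genes of mean log2 CPM of at least 1. The 8 points share 4 conditions and 2 lines, so high values are common, and they are given as a description. Closest to *Pdgfa* were C330007P06Rik (r = 0.999), *Strn3* (0.999) and *Inhba* (0.998), the last of which encodes the activin βA subunit. In Smad4-on cells *Inhba* stood at 35.8 CPM under SB505124 and 524 under TGFβ1 in B73, and at 86.8 and 1259 in B87. *Strn3* and C330007P06Rik moved in the same order over a smaller range, 106 to 167 and 34.2 to 54.0 CPM.

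Closest to *Pdgfb* were *Stk4* (0.994), *Tank* (0.993) and *Fnbp1l* (0.992), and closest to *Pdgfc* were *Zfp260* (0.997), *Ireb2* (0.990) and *Nox4* (0.989), an NADPH oxidase. *Nox4* stood at 2.76 to 10.5 CPM in B73 and 1.23 to 8.46 in B87. Closest to *Pdgfrb* were *Synpo* (0.990), an actin-binding protein of contractile cells, *Ddrgk1* (0.987) and *Dennd2a* (0.977). *Synpo* was lower with *Smad4* on in B73, from 34.2 to 20.5 CPM under SB505124 and from 42.0 to 10.2 under TGFβ1. In B87 it went from 25.6 to 36.4 and from 35.3 to 28.8 CPM. *Pdgfd* was nearest to *Ttll12* (0.964), *Thap7* (0.960) and *Lrrc41* (0.943), and *Pdgfra* to *Phlpp2* (0.967) and *Crtc3* (0.959).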

How the data were processed

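Cells of 2 lines, B73 and B87, were profiled by RNA-seq in 4 groups of 2 libraries (1 per line), named in the sample titles. Per the labels and the study's methods, stranded poly(A) libraries were read as 75-bp single ends, trimmed with Trimmomatic 0.36, checked with FastQC 0.11.5, aligned to GRCm38 (mm10) with STAR 2.5.3a and counted with featureCounts 1.6.3. The authors deposited raw counts per gene for each library, with gene coordinates and a transcript length, and no pooled values. Settings for strand and for reads of several genes were not stated.

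Counts were tested with edgeR 4.0.16 (quasi-likelihood F-test, TMM, filterByExpr by group, 14301 genes kept) in R 4.3.3. All 8 libraries entered a model of group and cell line, with Benjamini-Hochberg adjustment over all tested genes. A gene was called at an adjusted p under 0.05 and a change over 2-fold, the study's thresholds. The study used DESeq2 and its methods name no covariate, so DESeq2 1.42.0 and fits without the line were alternatives. SE is the log2 fold change divided by the root of its F value, and values for single lines are differences of log2 CPM, computed with 2 prior counts. The pairing comes from the line named in each title. Deviations of the same line correlated across groups (r = 0.642 to 0.774 over 6 pairs of groups). Replicates are different lines, and nothing states repeat cultures, so p-values measure the spread between these libraries. Models of line-specific effects leave 1 residual degree of freedom, as do the fits of only 4 libraries. The model with only 1 of these terms was added after the data were seen. Levels per length used the exon union of GENCODE M21, with the deposited transcript length as an alternative. Steps were tested on simulated counts.

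The 6 genes, the lists around them and the cell type markers were chosen with earlier results of these data known. Named genes were the 6 PDGF genes, *Smad4*, called genes of each list in the 4 pairwise contrasts (at most 4 per list and contrast), and the 3 nearest genes by correlation. Of these, 1 gene is not reported here, nor is 1 allele of the mice. *Csf1*, *Egr1*, *Vegfb*, *Lrp1*, *Pdgfrl*, *Pcsk5*, 6330403L08Rik, marker genes and untested receptor genes were named outside this rule after their values were seen.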

Additional observations from a re-analysis of the deposited data

Results flagged for a closer look

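In the model with both line-specific effects, the *Smad4* effect had an adjusted p under 0.05 for a difference between the lines in 3 PDGF genes (edgeR). Of these, 2 also passed the 2-fold rule, beside 2.59% of all tested genes. The share of all tested genes at an adjusted p alone is not given here. The log2 effect in B87 minus that in B73 was -1.10 for *Pdgfb* (adjusted p = 3.85e-05), whose per-line values were 0.07 and 0.78 in B73 (under SB505124 and TGFβ1) and -1.11 and -0.27 in B87. It was 3.86 for *Pdgfrb* (adjusted p = 0.000413), with 25 and 5 counts (Smad4 off and on) under SB505124 and 34 and 0 under TGFβ1 in B73, and log2 values of 1.08 and -0.26 in B87. With a library at 0 counts, the size of this estimate depends on the prior count. It was 0.57 for *Pdgfc* (adjusted p = 0.00385, under 2-fold and so not called), with -0.64 and -0.08 in B73 and -0.00 and 0.42 in B87. For the effect of TGFβ1, the line difference of *Pdgfc* was 0.69 (adjusted p = 0.00167, edgeR, under 2-fold and so not called), with 0.64 and 1.20 in B73 (Smad4 off and on) and 1.40 and 1.83 in B87. With a single line-specific effect in the model the adjusted p values were 0.0529, 0.0757, 0.608 and 0.586 in that order. Each line is 1 tumor, so these differences describe B73 and B87 and were not tested on other lines.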

How the results depend on the processing

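Without the replicate block (the cell line), edgeR called 1 of the 6 genes for TGFβ1 in Smad4-off cells (2 with the line), as *Pdgfb* stood at 2.60 with an adjusted p of 0.0843 (edgeR), and 0 for *Smad4* under TGFβ1 (1 with the line), as *Pdgfa* stood at 1.06 with an adjusted p of 0.0933. The block changed no other call of a PDGF gene in edgeR, and DESeq2 without it kept the counts of 2 and 1. Requiring at least 10 counts in every library removed *Pdgfrb* and left 1 call (from 2) for B87 minus B73 and 1 (from 2) for the line difference in the *Smad4* effect, where the model with only that line term called 0. With an adjusted p alone, *Pdgfc* was added for TGFβ1 in Smad4-off cells, for the line difference in the *Smad4* effect (3 genes each, from 2) and for that in the TGFβ1 effect (1, from 0), and *Pdgfd* for B87 minus B73 (3, from 2). The share of all tested genes by that rule is not given here. The 4-library fit, which leaves 1 residual degree of freedom, called *Pdgfc* in Smad4-off cells (1.02, adjusted p = 0.00335, edgeR). For TGFβ1 in Smad4-on cells it put *Pdgfrb* at -0.88 (adjusted p = 0.0459, edgeR), under 2-fold and so not called. *Pdgfrb* for *Smad4* under SB505124 was -0.77 in DESeq2 with the line (adjusted p = 0.996) and 0.39 in edgeR. The cause was not tested.

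Counts over all tested genes moved more. Without the replicate block they went from 1993 to 1035 and from 848 to 168 (TGFβ1, Smad4 on and off), from 446 to 36 and from 156 to 2 (*Smad4*, TGFβ1 and SB505124) and from 27 to 0 (interaction). In DESeq2 without it, 479, 261 and 97 were called in the second to the fourth of these. The filter of 10 counts tested 11848 genes in place of 14301 and gave 1293, 519, 297 and 77 (10.9%, 4.38%, 2.51% and 0.65%). For the line it gave 488 (4.12%) in place of 1197 (8.37%). No filter tested 27770 genes and gave 783, 403 and 284 (*Smad4* under TGFβ1 and SB505124, interaction). These are 2.82%, 1.45% and 1.02%, beside 3.12%, 1.09% and 0.189% in the main fit. The 4-library fit gave 77 for *Smad4* under SB505124. DESeq2 with the line gave 136 for the interaction, 115 in place of 370 and 47 in place of 158 for the line differences, and the smaller models 56 and 0. Line contrasts had no fit without the line, and leaving out a line left 1 library per group, which gives values and no test. *Pdgfrb* in B73 (34 counts or fewer) is limited by depth.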
